A study of Homo sapiens with 6 samples.

Results

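The genes of MHC class I antigen presentation examined here were HLA-B, HLA-C, HLA-E, HLA-F, B2M, TAP1, TAP2, PSMB8 and PSMB9. All probe sets that the array annotation assigned to any of these 9 genes were taken, which gave 21 of the 22215 probe sets tested and 9 of 11963 genes, and none of the 21 carried more than 1 gene symbol. RNA came from SUM-159 cells, a triple negative breast cancer line, stably transfected with an SH3GL2 insert in the pcDNA 3.1 vector (3 arrays) or with empty vector (3 arrays). SH3GL2 encodes endophilin A1, a membrane-bending protein of endocytosis, and the overexpressing line was made to look for genes that act downstream of it. Both lines went through transfection, and each group was 1 transfected line, so an effect of SH3GL2 and a difference between the lines cannot be told apart. Neither the labels nor the methods say whether the triplicates were separate cultures, and p-values may therefore measure technical spread only.

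MHC class I molecules carry short peptides from inside the cell to its surface, where CD8+ T cells and NK cells inspect them. The peptides are cut by the proteasome, in which the inducible subunits PSMB8, PSMB9 and PSMB10 can replace the standard catalytic subunits PSMB5, PSMB6 and PSMB7. TAP1 and TAP2 pump the peptides into the endoplasmic reticulum, where they are loaded on a heavy chain (HLA-B, HLA-C, HLA-E or HLA-F) paired with B2M, the invariant light chain. Interferons raise all of these genes in many cell types, through the interferon-stimulated response element (ISRE) and the gamma-activated site (GAS), and NF-kB acts on a kB site of the heavy chain promoters. The X2 and Y boxes belong to a promoter module that the class I transactivator complex occupies.

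Of the members, 8 lie on chromosome 6 and B2M lies on chromosome 15 (chr15:44711517-44718145, GRCh38.p14). TAP2 (chr6:32821831-32838739), PSMB8 (chr6:32840717-32844679), TAP1 (chr6:32845209-32853704) and PSMB9 (chr6:32854192-32859851) form a cluster, and TAP1 and PSMB9 run in opposite directions from starts 488 bases apart. HLA-F (chr6:29723434-29738532), HLA-E (chr6:30489509-30494194), HLA-C (chr6:31268749-31272092) and HLA-B (chr6:31353875-31357179) lie in the same arm. Promoter stretches are shown for 3 heavy chains, the light chain and the transporter, which differed little between the groups, and for PSMB10, an inducible subunit outside the members that rose. They come from RefSeq windows of 250 bases before to 50 bases after the annotated start (GRCh38.p14), which were found for 8 of the 9 members. All are written 5′ to 3′ on the strand of the gene, and capitals mark matches, on either strand and overlapping where they do, to the ISRE-like letters GAAANNGAA or GAANNGAAA, the GAS-like letters TTCNNNGAA, the kB-like letters GGGNNTTCC, the X2-like letters TGACGC or the Y box CCAAT.
HLA-B promoter, chr6:31357226-31357361, minus strand: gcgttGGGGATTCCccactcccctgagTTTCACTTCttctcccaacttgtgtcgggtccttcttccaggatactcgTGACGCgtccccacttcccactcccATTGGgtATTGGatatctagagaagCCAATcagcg
HLA-C promoter, chr6:31272139-31272289, minus strand: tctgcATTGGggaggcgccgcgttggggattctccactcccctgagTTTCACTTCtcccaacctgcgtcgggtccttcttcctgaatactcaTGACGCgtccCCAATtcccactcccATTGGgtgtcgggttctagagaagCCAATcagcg
HLA-F promoter, chr6:29723274-29723386, plus strand: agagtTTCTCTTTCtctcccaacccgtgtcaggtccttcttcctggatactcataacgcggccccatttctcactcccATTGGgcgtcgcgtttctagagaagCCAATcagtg
B2M promoter, chr15:44711368-44711526, plus strand: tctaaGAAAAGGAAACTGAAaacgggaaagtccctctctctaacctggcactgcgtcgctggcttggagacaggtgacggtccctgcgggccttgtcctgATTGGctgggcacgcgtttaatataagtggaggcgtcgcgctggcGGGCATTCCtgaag
TAP1 promoter, chr6:32853818-32853954, minus strand: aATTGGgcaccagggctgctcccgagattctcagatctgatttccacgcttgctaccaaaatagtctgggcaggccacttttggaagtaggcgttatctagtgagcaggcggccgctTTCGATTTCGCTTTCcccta
PSMB10 promoter, chr16:67936833-67936901, minus strand: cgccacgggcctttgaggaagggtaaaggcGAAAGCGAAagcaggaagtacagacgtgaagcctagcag

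The windows of HLA-B and HLA-C were identical at 88.5% of aligned columns, and those of HLA-B and HLA-F at 79.7%, against 50.9% for HLA-B and B2M. GAAANNGAA was present in 5 of the 10 member windows (TAP1 and PSMB8 have a pair each) and in 8.11% of all 35116 windows of this length. GAANNGAAA, added after the sequences were read, was in 4 of 10 and in 7.66% of all windows, the kB-like letters in 3 of 10 and in 6.58%, and the X2-like letters in 3 of 10 and in 9.14%. The GAS-like letters were in 2 of 10 and in 7.66%, and CCAAT in 6 of 10 and in 34.6%. The first TAP1 window and the PSMB9 window overlap, and their CCAAT matches are the same bases, counted for both windows. A match is a description of these letters and no measure of binding.

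**Figure D1:**
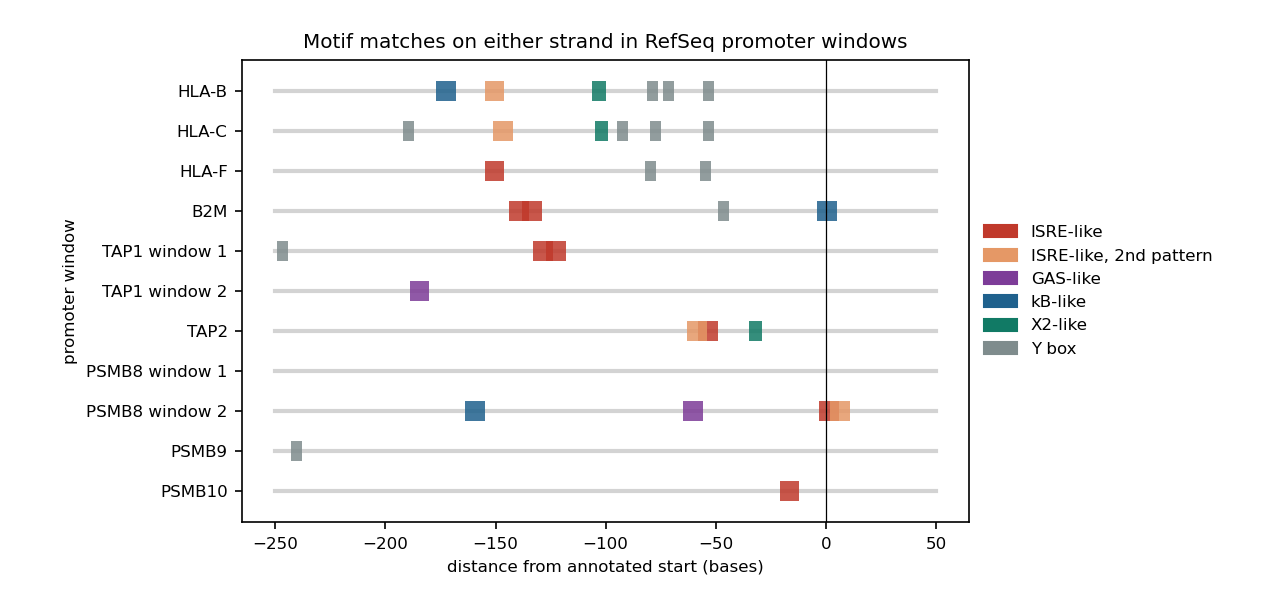
Matches to the searched letters in the RefSeq promoter windows of 8 members and PSMB10, by distance in bases from the annotated start. Coloured bars mark matches on either strand, and in HLA-B, HLA-C and HLA-F the ISRE-like match lies between positions -155 and -143.

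The targeted gene was examined first. The only SH3GL2 probe set gave log2 signals of 3.15, 3.33 and 3.29 in the SH3GL2 arrays and 3.24, 3.18 and 3.25 in the empty vector arrays, below the median of 4.96 of 88 probe sets that read genes specific to other organs (the reference probe sets), and so did not check the labels. The 95th percentile of that reference, 7.02, served as a detection line. Arrays of a group correlated with a Pearson r of 0.997 to 0.998 and arrays of different groups with 0.995 to 0.997, taken over probe sets, which are no independent replicates. Of the markers of the line, VIM had means of 14.58 and 14.68 and CD44 of 11.58 and 11.78 with SH3GL2 and empty vector, while KRT5 and KRT14 were below the detection line, as were the hormone receptor genes ESR1 and PGR, and ERBB2, GATA3 (9.27 and 9.57), KRT8 (9.65 and 9.75) and KRT18 (11.98 and 11.73) were above it. CAV1, a caveolae gene of mesenchymal cells, was lower with SH3GL2 (12.95 and 13.25, log2 fold change -0.30, limma adjusted p = 0.00267), the only call among 14 line markers, and its part in the results was not tested. None of 10 leukocyte markers and none of 4 endothelial markers had a group mean above the line, and none of these 14 passed the test. The summed linear signal of the leukocyte markers was 431 to 477 in SH3GL2 arrays and 438 to 466 in empty vector arrays, and PTPRC, which defines leukocytes, was at 4.17 and 4.15. RNA was measured in bulk, and fewer cells with a transcript and less of it per cell cannot be told apart.

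The members differed little between SH3GL2 and empty vector cells. None of the 21 probe sets was called higher or lower at an adjusted p under 0.05 (moderated test of limma, Benjamini-Hochberg over all probe sets), against 1.99% of all probe sets called higher and 2.18% called lower. None passed at an unadjusted p under 0.05 either, and none when each probe set was run through a one-way analysis of variance. The smallest adjusted p was 0.335, for PSMB9, and the largest 0.971. The groups overlapped on all 21, whereas every SH3GL2 array lay above every empty vector array at 10.5% of all probe sets and below at 8.97%. The log2 fold changes ran from -0.13 to 0.16 with a median of -0.04, against a median of 0.01 over all probe sets. A missed threshold does not show equality, but the 95% intervals bound the difference: all 21 excluded a change of 1.5-fold in either direction, as 96.4% of all probe sets did, and 17 excluded a change of 1.2-fold, against 39.1% of all probe sets. The exceptions were HLA-E on 200904_at, PSMB9, and the dim probe sets 221978_at of HLA-F and 208428_at of TAP2. The members had a smaller median SE than all probe sets, 0.063 against 0.093, and these shares were not matched for brightness. The intervals, like the p-values, may hold technical spread only. An exact permutation test of 3 arrays against 3 cannot go below 0.1.

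**Figure D2:**
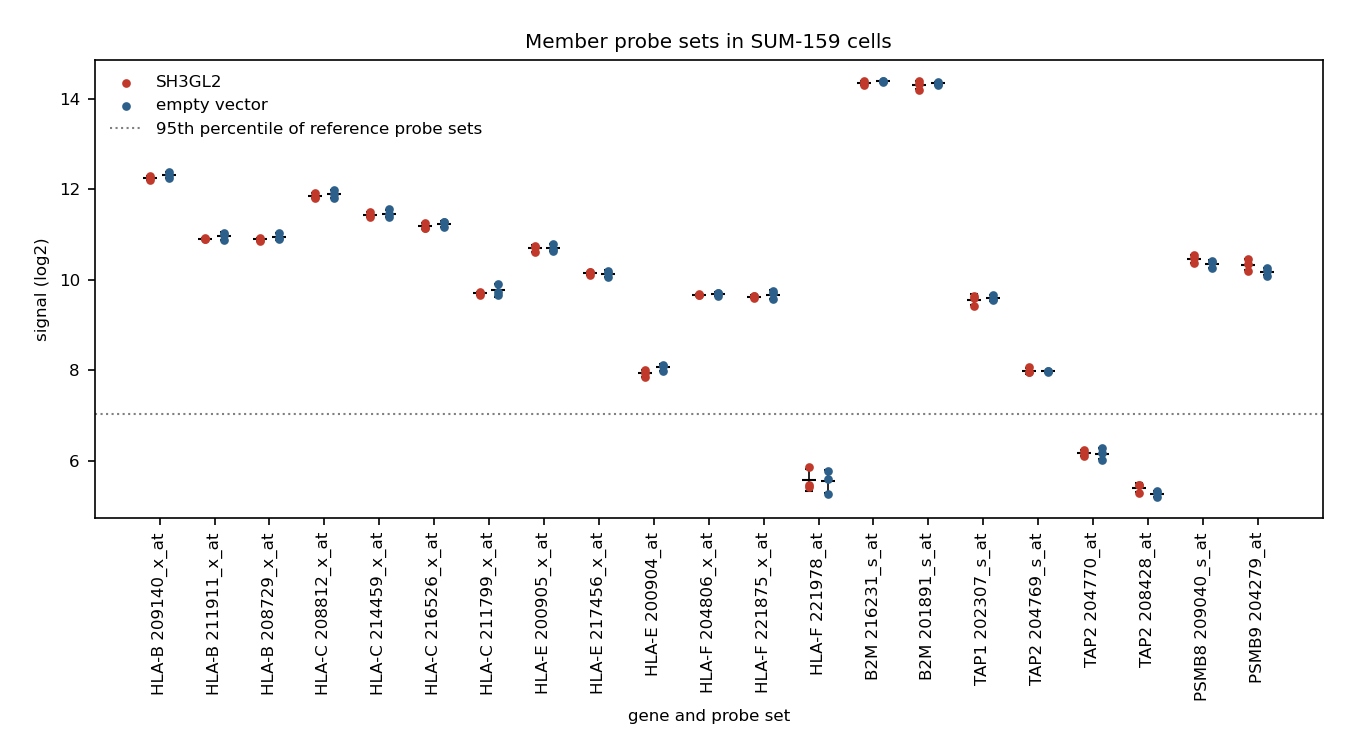
Log2 signal of the 21 member probe sets in SUM-159 cells with SH3GL2 or empty vector, 1 point per array, with mean and SD (n = 3) in black and a dotted line for detection at 7.02. The groups overlap on every probe set, and 18 of the 21 lie above the line.

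HLA-B and HLA-C are classical heavy chains that present peptides to CD8+ T cells. HLA-B had log2 signals of 12.25, 12.21 and 12.28 in SH3GL2 arrays on its brightest probe set (209140_x_at), against 12.37, 12.24 and 12.31 in empty vector arrays. Its means were 12.25 ± 0.04 and 12.31 ± 0.07 (SD, n = 3 each), a log2 fold change of -0.06 (SE 0.05, 95% interval -0.17 to 0.05, limma adjusted p = 0.642). The ranges overlapped and the SH3GL2 arrays lay in the lower part of the empty vector range or just below it. Its other probe sets had the same log2 fold change to 2 decimals, -0.06, at means of 10.91 and 10.96 (211911_x_at) and of 10.89 and 10.95 (208729_x_at). HLA-C gave 11.83, 11.81 and 11.92 with SH3GL2 and 11.97, 11.81 and 11.90 with empty vector on 208812_x_at, a log2 fold change of -0.04 (95% interval -0.16 to 0.08, adjusted p = 0.813). The lowest value of both groups was the same. The other 3 HLA-C probe sets had log2 fold changes of -0.03 (214459_x_at), -0.06 (216526_x_at) and -0.06 (211799_x_at). The interval nearest to a loss among the 7 probe sets of these genes reached a fold of 0.857, on 211799_x_at, and the interval nearest to a gain reached 1.07.

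HLA-E and HLA-F are non-classical heavy chains. HLA-E displays leader peptides of other class I molecules to the NK cell receptor CD94/NKG2A, and its probe set without the _x_at ending (200904_at) had log2 signals of 7.84, 8.0 and 7.94 in SH3GL2 arrays, against 7.97, 8.09 and 8.11 in empty vector arrays. This was the lowest log2 fold change of all members, -0.13 (SE 0.08, 95% interval -0.31 to 0.05, limma adjusted p = 0.501), and 2 of the SH3GL2 arrays lay below all empty vector arrays. The 2 other HLA-E probe sets did not share it, with log2 fold changes of -0.01 (200905_x_at, means of 10.69 and 10.70) and 0.01 (217456_x_at, means of 10.14 and 10.13). HLA-F, which NK cell receptors bind mainly in its peptide-free form, had means of 9.66 and 9.68 on 204806_x_at (log2 fold change -0.02) and of 9.62 and 9.67 on 221875_x_at (-0.05). Its probe set without that ending, 221978_at, gave 5.85, 5.41 and 5.46 with SH3GL2 and 5.59, 5.27 and 5.77 with empty vector, below the detection line in every array. No change of HLA-F can be read from 221978_at.

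All 11 HLA probe sets that end in _x_at, a suffix by which Affymetrix marks probes that may bind transcripts of related genes, lay on the same side of their group means in some arrays. In empty vector replicate 1 all 11 lay above the group mean, by 0.08 on average on the log2 scale, and in empty vector replicate 2 there were 10 below it, by 0.06 on average. In SH3GL2 replicate 3 all 11 lay above the mean of their group, by 0.04 on average. The 3620 probe sets of similar brightness deviated by -0.02 on average in empty vector replicate 1, -0.02 in empty vector replicate 2 and 0.02 in SH3GL2 replicate 3. The heavy chain probe sets may read each other's transcripts and are not independent, so their 11 log2 fold changes count as fewer measurements. HLA-G, a heavy chain mainly of the placental trophoblast, was measured by 4 probe sets of the same ending, with log2 fold changes of -0.02 to -0.16, none of which passed. On 210514_x_at, at means of 8.77 and 8.93 (limma adjusted p = 0.293), all SH3GL2 arrays lay below all empty vector arrays. The same held at 8.97% of all probe sets, and on the other HLA-G probe sets the groups overlapped. Both B2M probe sets were below their group means in empty vector replicate 1, at 14.31 and 14.37, and above them in SH3GL2 replicate 3, at 14.32 and 14.38.

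**Figure D3:**
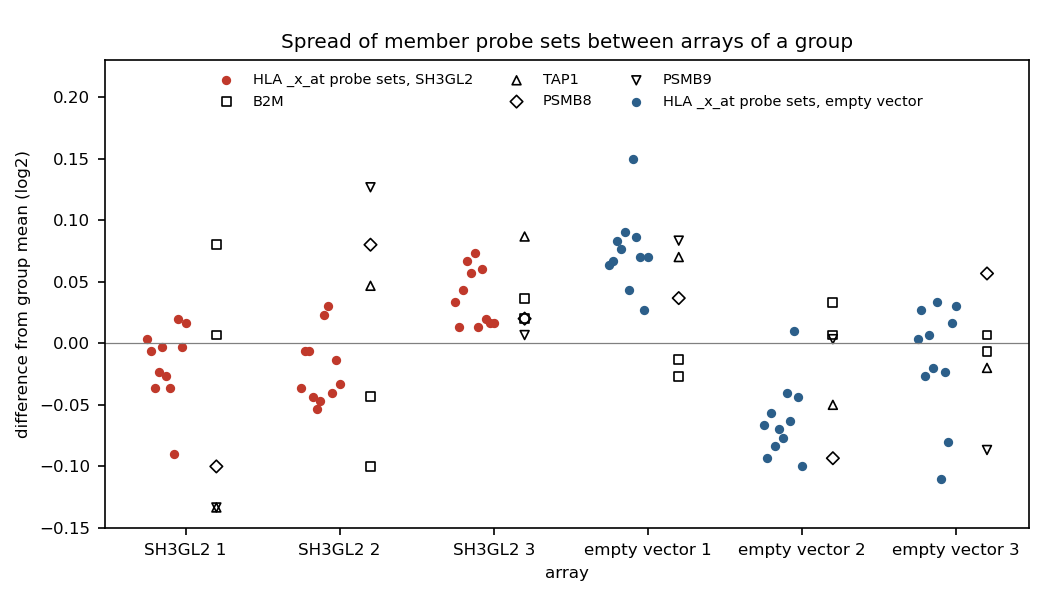
Difference of each array from the mean of its group (log2) for the 11 HLA probe sets ending in _x_at (filled points) and for B2M, TAP1, PSMB8 and PSMB9 (open symbols). All 11 HLA points are above 0 in SH3GL2 replicate 3 and in empty vector replicate 1, and 10 of 11 are below 0 in empty vector replicate 2.

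B2M, the light chain of class I molecules, was among the brightest transcripts on the array in both groups. Its probe set 216231_s_at ranked 138 of 22215 by mean signal, with 14.35, 14.30 and 14.38 in SH3GL2 arrays and 14.37, 14.39 and 14.39 in empty vector arrays. The log2 fold change was -0.04 (SE 0.04, 95% interval -0.12 to 0.04, limma adjusted p = 0.675). The other, 201891_s_at, gave 14.38, 14.20 and 14.32 with SH3GL2 and 14.31, 14.37 and 14.33 with empty vector, also with a log2 fold change of -0.04. One SH3GL2 array was above all the empty vector arrays there and another below them. The highest value of any probe set was 15.31, and whether signals near it were compressed was not tested.

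The transporter subunits showed no shift beyond the spread of the arrays. TAP1 had log2 signals of 9.42, 9.60 and 9.64 in SH3GL2 arrays and 9.66, 9.54 and 9.57 in empty vector arrays, a log2 fold change of -0.04 (SE 0.07, limma adjusted p = 0.878). Its 95% interval, -0.20 to 0.12, corresponds to folds of 0.873 to 1.09. TAP2 gave 8.06, 7.95 and 7.95 with SH3GL2 and 7.98, 7.96 and 7.97 with empty vector on 204769_s_at, a log2 fold change of 0.02 (95% interval -0.15 to 0.18, adjusted p = 0.951). The empty vector arrays lay inside the SH3GL2 range. The remaining TAP2 probe sets, 204770_at (0.01) and 208428_at (0.13), were below the detection line in both groups and carry little information on TAP2.

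The inducible proteasome subunits had the highest log2 fold changes among the member probe sets above the detection line, without passing the test. PSMB9 (subunit beta 1i) had log2 signals of 10.20, 10.46 and 10.34 in SH3GL2 arrays, against 10.26, 10.18 and 10.09 in empty vector arrays, with means of 10.33 ± 0.13 and 10.18 ± 0.09 (SD, n = 3 each). The log2 fold change was 0.16 (SE 0.07, 95% interval -0.01 to 0.32, limma adjusted p = 0.335), and SH3GL2 replicate 1 lay within the empty vector range. PSMB8 (subunit beta 5i) gave 10.36, 10.54 and 10.48 with SH3GL2 and 10.38, 10.25 and 10.40 with empty vector, a log2 fold change of 0.12 (95% interval -0.03 to 0.26, adjusted p = 0.456). Again only SH3GL2 replicate 1 fell within the range of the other group. Both were above 0 under each of the 16 settings run, at 0.09 to 0.22 for PSMB9 and 0.07 to 0.17 for PSMB8, with adjusted p of 0.142 or more.

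PSMB10 (subunit beta 2i), which completes the inducible set and is encoded on chromosome 16, rose. It had log2 signals of 8.85, 9.24 and 9.02 in SH3GL2 arrays and 8.69, 8.52 and 8.69 in empty vector arrays, a log2 fold change of 0.40 (SE 0.10, limma adjusted p = 0.0345), or 1.32-fold. All SH3GL2 arrays lay above all empty vector arrays. The call was lost when any array but SH3GL2 replicate 1 was left out (adjusted p = 0.0695 to 0.156), without an intensity trend (0.0889), with a floor on signals at the median of the reference (0.235) and in the analysis of variance (0.327). PSME1, a subunit of the PA28 cap of the proteasome, had 0.16 (adjusted p = 0.128) and passed under quantile normalization (0.0494). Of 15 genes listed for the standard proteasome, which include the assembly factor POMP and the cap subunit PSME3, none passed (2.54% of all genes were called higher and 2.36% lower, each by its brightest probe set), with a median log2 fold change of 0.03, and the subunits that the inducible ones replace had 0.10 (PSMB5), -0.04 (PSMB6) and 0.05 (PSMB7). The log2 fold change of PSMB10 exceeded that of PSMB9 by 0.25 and that of PSMB8 by 0.29, each with an exact two-sided permutation p of 0.1, the smallest that 3 against 3 arrays allow (adjusted p = 0.1 over 6 pairs chosen after the values were known).

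Around the members, the peptide loading genes and the regulators gave no calls on the brightest probe set of each gene, and a further probe set of 1 regulator, CREB1, fell. Of 9 genes of peptide loading and trimming measured here, none passed, with a median log2 fold change of -0.04 against 0.02 over all 11963 genes. TAPBP, tapasin, which bridges TAP and the heavy chain, was the closest, with 8.98, 9.09 and 9.09 in SH3GL2 arrays and 8.81, 8.81 and 8.92 in empty vector arrays on its brighter probe set (log2 fold change 0.21, adjusted p = 0.149 from limma). The chaperones CALR, CANX and PDIA3 had -0.06, -0.04 and -0.04, and the trimming peptidases ERAP1 and ERAP2 0.06 and 0.03. Of 23 regulators of class I transcription and interferon signaling, none passed on the brightest probe set either (median 0.04). CREB1, which binds the X2 box and was singled out after its values were seen, had log2 fold changes of -0.16 (204313_s_at, adjusted p = 0.439), -0.26 (204314_s_at, adjusted p = 0.111) and -0.08 (214513_s_at, adjusted p = 0.722), and on 204312_x_at had log2 signals of 6.80, 6.72 and 6.80 in SH3GL2 arrays against 7.13, 7.22 and 7.30 in empty vector arrays (-0.44, adjusted p = 0.0106). On 204312_x_at the groups did not overlap and the SH3GL2 arrays lay below the detection line. This call was lost in the analysis of variance (0.0991) and with the floor (0.0654), and could not be had with only the brighter probe sets tested. IRF1, a transcription factor that activates class I, TAP1 and PSMB9 promoters after interferon gamma, had means of 8.07 and 7.92 (0.15, adjusted p = 0.527). RELA and NFKB1, subunits of NF-kB singled out after their values were seen, had 0.29 each (adjusted p = 0.0539 and 0.123). RELA passed on 201783_s_at under quantile normalization (adjusted p = 0.0393), with only the brighter probe sets tested (0.0355) and with a robust prior (0.0460). It also passed with a replicate block (0.0497) and without SH3GL2 replicate 1 (0.0233), but not after median centring (0.0747) or with 16 added before log2 (0.0565). The other RELA probe set, 209878_s_at, had 0.17 (adjusted p = 0.524), and its groups overlapped. NFKB1 passed with the block (0.0323) and without SH3GL2 replicate 2 (0.0488). The interferon genes IFNB1 and IFNG lay below the reference median in both groups, at means of 4.16 and 4.08 and of 3.68 and 3.77.

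MICA and MICB, class I-like ligands of the activating receptor NKG2D on NK cells and T cells, fell. MICA had log2 signals of 9.34, 9.13 and 9.19 in SH3GL2 arrays, against 9.66, 9.60 and 9.75 in empty vector arrays. The log2 fold change was -0.45 (SE 0.07, limma adjusted p = 0.00330), or a fold of 0.732, and the groups did not overlap. This call held when each array was left out in turn and was lost in the analysis of variance (adjusted p = 0.155) and with the floor (0.0766). MICB gave 8.88, 9.07 and 8.89 with SH3GL2 and 9.24, 9.26 and 9.22 with empty vector, a log2 fold change of -0.29 (adjusted p = 0.0398), again without overlap. Its call was lost without any array but SH3GL2 replicate 2 (adjusted p = 0.0942 to 0.193), without an intensity trend (0.0897), in the analysis of variance (0.213) and with the floor (0.122). Of the 10 class I-like genes measured here these 2 fell and none rose (2.36% and 2.54% over all genes), with a median of -0.04, and 4 of the 10 had a mean above the detection line. The log2 fold change of MICA lay 0.39 below that of HLA-B, and the per-array difference did not overlap between groups. The exact permutation p was 0.1, the smallest possible here (adjusted p = 0.1 over the 6 pairs). This pair was chosen after the values of both genes were known, so the lack of overlap adds no separate evidence.

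**Figure D4:**
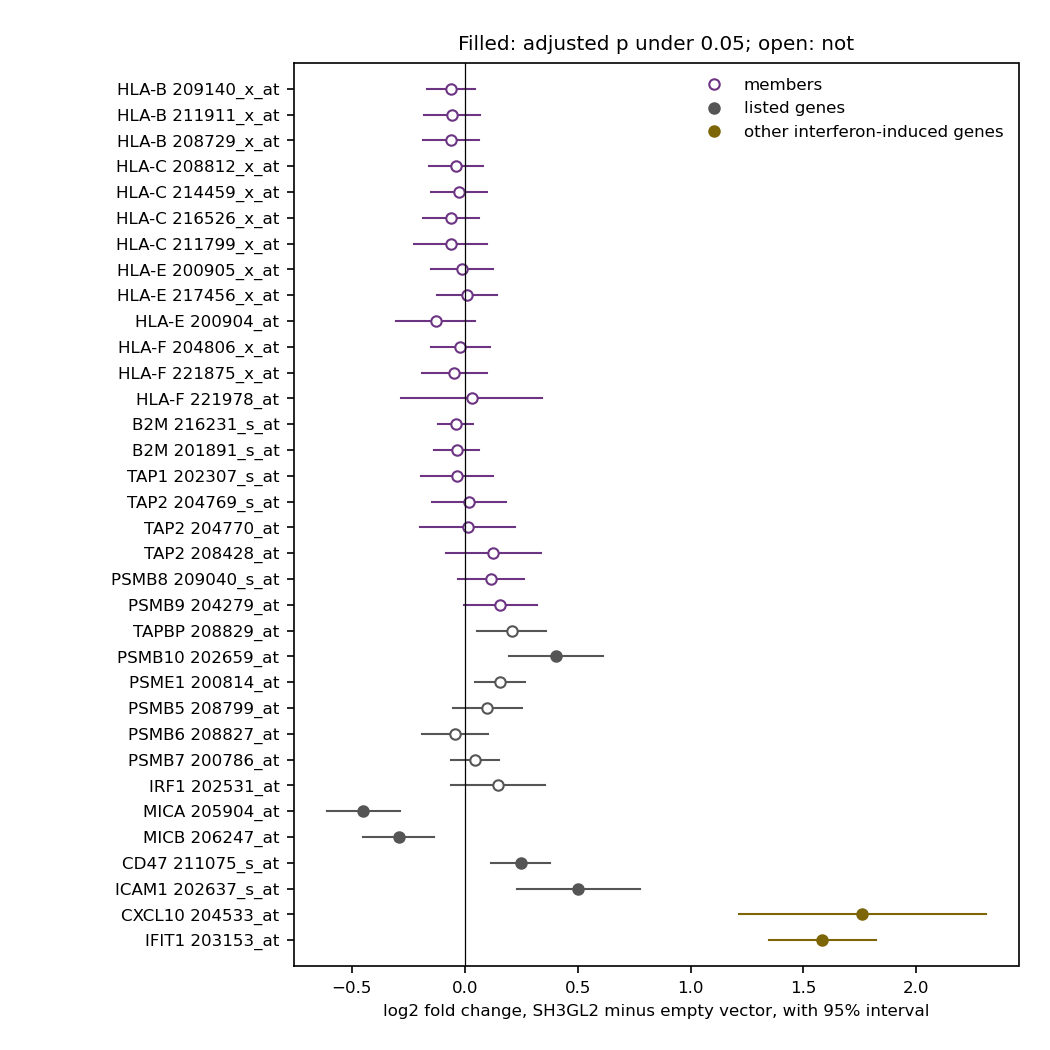
Log2 fold change (SH3GL2 minus empty vector) with its 95% interval for the 21 member probe sets, 11 listed genes and 2 other interferon-induced genes, with filled points for an adjusted p under 0.05. All member intervals include 0, MICA and MICB lie below 0, and PSMB10, CD47 and ICAM1 lie above it, as do IFIT1 and CXCL10, with both CXCL10 means (6.98 and 5.22) below the detection line.

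Other genes through which tumor cells meet lymphocytes or phagocytes went up or gave no call. Of 11 measured here, 2 rose and none fell, against 2.54% and 2.36% of all genes (median 0.02). ICAM1, the adhesion ligand of the lymphocyte integrin LFA-1, had 8.93, 8.80 and 9.36 in SH3GL2 arrays and 8.61, 8.36 and 8.61 in empty vector arrays on its brightest probe set, a log2 fold change of 0.50 (SE 0.12, limma adjusted p = 0.0406). Another of its probe sets rose by 0.73 (202638_s_at, adjusted p = 0.00157), and the third had 0.29 (adjusted p = 0.111). CD47, which signals to macrophages not to engulf a cell, had 10.47, 10.62 and 10.55 with SH3GL2 and 10.27, 10.32 and 10.31 with empty vector (0.25, adjusted p = 0.0361). Its second bright probe set, 213857_s_at, had 0.14 (adjusted p = 0.272), and 213055_at, just above the detection line, had -0.10 (adjusted p = 0.654). The call of ICAM1 on its brightest probe set was lost without any array but SH3GL2 replicate 2 (adjusted p = 0.0711 to 0.172) and that of CD47 without any but SH3GL2 replicate 1 (0.0827 to 0.148) and after median centring of the arrays (0.0669). Both of these calls were lost without an intensity trend (0.108 and 0.123), in the analysis of variance (0.388 and 0.179) and with the floor (0.305 and 0.0936). ICAM1 on 202638_s_at kept its call without each array in turn and lost it in the analysis of variance (0.185) and with the floor (0.101). Of 13 MHC class II genes none passed, and 1 of the 13, HLA-DQB1 at means of 7.23 and 7.01, exceeded the detection line, in the SH3GL2 group only. The class II transactivator CIITA, at 5.30 and 5.42, and HLA-DRA, at 5.38 and 5.31, lay below it.

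A pair of interferon-induced genes outside the members, chosen after their values were known, is given for scale. OASL and CCL5 were looked up in the same way and also rose. All were picked for their values, and the share of interferon-induced genes that rose was not counted. IFIT1, which binds foreign RNA, had log2 signals of 7.52, 7.51 and 7.88 in SH3GL2 arrays and 5.97, 6.07 and 6.12 in empty vector arrays, a log2 fold change of 1.58 (95% interval 1.35 to 1.82) with the empty vector arrays below the detection line. CXCL10, a T cell chemokine, gave 6.94, 6.28 and 7.73 with SH3GL2 and 5.15, 5.24 and 5.28 with empty vector, and both group means were below that line. For comparison, TAP1 had a log2 fold change of -0.04, PSMB9 of 0.16 and IRF1, itself induced by interferons, of 0.15. The highest upper bound among the members was 0.34, for the dim HLA-F probe set.

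The profiles most like those of 3 members over the 6 arrays were sought among 10018 probe sets with 1 symbol and a group mean above the detection line. The measure was the root mean square difference of log2 signals after centring each probe set on its mean. PSMB9 was nearest to GFOD2 (0.0170), SDHC (0.0234) and CDC25B (0.0236). PSMB8 was nearest to PSME3 (0.0168), which encodes the PA28 gamma cap of the nuclear proteasome, MPG (0.0170) and PLOD1 (0.0177), and HLA-E on 200904_at to RFC5 (0.0211), ATP7A (0.0224) and IDS (0.0227). None of these 9 genes passed the test of the groups. They were picked for profiles like those of members that did not pass, so this adds no separate evidence.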

How the data were processed

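RNA from SUM-159 cells with SH3GL2 or empty vector (3 Affymetrix human expression arrays each) was measured by the authors, and the arrays were scanned with GCOS. MAS5, with no version, is named in the submitters' processing notes. The authors deposited log2 signals, and any scaling between arrays is not given in the sources used here. Array medians were 6.97 to 7.02. Values were used as deposited, and 62 Affymetrix controls of 22277 probe sets were left out. Platform annotation named 1 gene for 19064 probe sets, several for 1043 and none for 2108, and 0 symbols needed an update through RefSeq. Groups were taken from the titles.

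The comparison used limma 3.58.1 under R 4.3.3 (eBayes with an intensity trend, two-sided) and Benjamini-Hochberg adjustment over 22215 probe sets at 0.05. The fit was tested on simulated data. Pathway lists used the probe set with 1 symbol and the highest mean for each gene. Named were all member probe sets, list genes that passed (up to 4 per list), further subunits and regulators set by the rule, and the 3 nearest profiles of the 3 members with the smallest p. Members and lists were chosen with earlier results of these data known. Reference probe sets covered 50 genes of other organs. Permutation tests used scipy 1.17.1, window alignments biopython 1.88, and figures Python 3.11.15 with matplotlib 3.10.9. The number of arrays limits the precision. Alternatives were 2 scalings, adding 16 before log2, a floor, a filter on dim probe sets, 2 other priors, an analysis of variance, a replicate block, leaving out each array, other probe set rules and gene means.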

Additional observations from a re-analysis of the deposited data

How the results depend on the processing

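No member probe set was called under any setting run, in either direction, including each of the 6 fits that left out an array, and all 312 values of member probe sets under alternatives stayed on the same side of the threshold. The pathway genes called, 3 higher and 2 lower, were 5 higher with quantile normalization, 0 and 0 with a floor at the median of the reference probe sets, 0 and 1 without an intensity trend, 0 and 0 in the analysis of variance, and 0 to 3 higher and 1 to 2 lower when an array was left out. Of all probe sets, 441 were called higher and 485 lower. With the floor these were 136 and 163, in the analysis of variance 33 and 44, without a trend 270 higher, and without 1 array 184 to 376 higher and 296 to 437 lower. Why the floor and the prior changed these counts was not tested. Fits without an array have fewer samples. With the replicate number as a block (replicate block) 5 pathway genes were higher and no member was called. Residual correlations of same-numbered arrays were -0.01, 0.13 and 0.15, and those of different numbers -0.16 to 0.02. The values of replicates 2 and 3 lay above that range, and that of replicate 1 lay within it. For 4 of 6 arrays the closest match was the same-numbered array of the other group. What same-numbered arrays had in common was not tested. Signal over background limits HLA-F on 221978_at and TAP2 on 204770_at and 208428_at. Whether the _x_at probe sets separate the heavy chains was not tested.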
